A study of Mus musculus with 12 samples.

Results

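The comparison described here is that of ears given isoliensinine (IsoL) with ears given MC903 (Model), in 8 of the 12 libraries of a study of mouse ear skin. The libraries were chosen by their titles, IsoL-1 to IsoL-4 and Model-1 to Model-4, and every gene of the count table was considered. Both groups come from wild-type mice, as does the third group, Blank, whose 4 libraries received no treatment and are given below as levels only. IsoL ears are labelled with isoliensinine as their treatment, a bisbenzylisoquinoline alkaloid of lotus seed. Model ears are labelled with MC903 (calcipotriol), a vitamin D analogue that, applied to mouse skin, induces a dermatitis resembling atopic dermatitis. The title of the series names cathepsin B, IL-17A and neutrophils. The strain, age, sex, doses and days of treatment, and whether the IsoL ears had also received MC903, are not given in the sources used here. The series states biological replicates for every group, but no label says that each library came from its own animal. The p-values therefore rest on the variation among these libraries alone, which may be technical.

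In the MC903 model the analogue acts on the vitamin D receptor of keratinocytes, which release TSLP, an epithelial cytokine that acts on dendritic cells, basophils, innate lymphoid cells and T cells. The skin then thickens and fills with eosinophils, neutrophils, monocytes and basophils, and its keratinocytes switch on the keratins and cornified envelope proteins of activated epidermis. Type I interferons and interferon-gamma induce separate but overlapping sets of antiviral and antigen presentation genes in most of these cells.

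Total counts ran from 16493348 to 18771831 in the IsoL libraries, from 13884927 to 17213227 in the Model libraries and from 15791536 to 17004780 in the Blank libraries. Levels are counts per 1000000 counts of the library, scaled by TMM factors (CPM), and fold changes are IsoL over Model. The standard error of a log2 fold change was derived from its size and the F statistic of the test. Keratinocyte (Krt5, Krt14, Krt10), dermal (Col1a1, Dcn), endothelial (Pecam1), cartilage (Col2a1), muscle (Ckm) and leukocyte (Ptprc) markers were found in all 12 libraries. The RNA of the inactive X chromosome was also found in all 12, and the Y-linked genes looked at had no count in any, as in female tissue. The spread between libraries was wider among the IsoL ears, with a common biological coefficient of variation of 9.18% in IsoL, 4.68% in Model and 3.56% in Blank. The library IsoL-2 stood apart from the other IsoL libraries on the second principal component, at 27.3 against -11.2 to -2.53 for the others. It held 62 genes at least 2-fold above every other IsoL library, hair keratins among them. The list of hair keratins is given with and without it. Counts of called members in several other lists also changed without it. Lower class II genes went from 3 to 2, and higher glutathione and NRF2 genes from 12 to 14. The ribosomal RNA gene Rn18s-rs5 also varied within IsoL, at 663, 3907, 1164 and 4273 CPM in IsoL-1 to IsoL-4, against 4474, 4299, 4977 and 4211 CPM in Model-1 to Model-4. The leukocyte marker Ptprc had 135 to 160 CPM in IsoL, 410 to 444 CPM in Model and 37.4 to 39.1 CPM in Blank. In bulk tissue, fewer cells of a type and less RNA per cell cannot be told apart in any of these results.

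By edgeR's quasi-likelihood test 6945 of 14500 genes differed at an adjusted p under 0.05, which is 47.9% of those tested. Of these, 3363 were higher in IsoL (23.2% of the genes tested) and 3582 were lower (24.7%). Large differences were mostly falls. At least 2-fold differences were called for 345 higher genes (2.38%) and 867 lower genes (5.98%), and at least 8-fold differences for 10 higher and 78 lower genes. The 4 IsoL libraries did not overlap with the 4 Model libraries for 44.7% of all genes. The first principal component of the 8 libraries held 74.1% of the variance and set the IsoL libraries, at 32.5 to 40.2, apart from the Model libraries, at -40.6 to -34.3. The median log2 fold change of all genes tested was 0.01, beside which the medians of the gene lists stand. Every count of called list members stands beside the shares of all genes tested, 23.2% higher and 24.7% lower. The 60 lists hold 943 entries, of which 869 were tested and 74 did not pass the filter on low values or had no row.

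**Figure D1:**
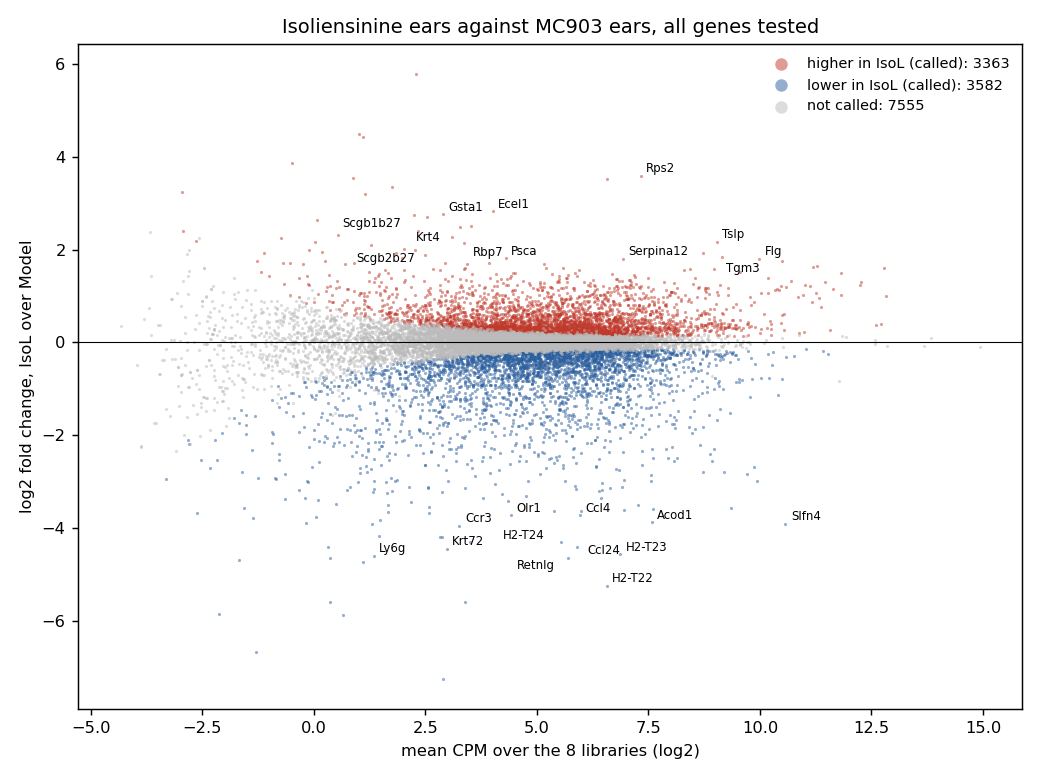
Mean CPM over the 8 libraries on a log2 scale (x axis) against the log2 fold change of IsoL over Model (y axis) for the 14500 genes tested, coloured by the call of edgeR's test. The labelled genes are the 12 largest rises and 12 largest falls with a symbol of a named gene, no overlap between the groups and a mean FPKM of 5 or more. The cloud reaches further down than up, with 867 genes called at least 2-fold lower and 345 at least 2-fold higher.

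Cyp24a1, the enzyme that breaks down active vitamin D and the textbook target of its receptor, had 5499, 5609, 4599.6 and 5429 CPM in the IsoL libraries, against 1729, 2020.01, 1843 and 1929 CPM in the Model libraries. The gene averaged 1.52 ± 0.306 CPM in Blank (SD, n = 4). Both groups of ears stood far above the untreated ears, and every IsoL library was above every Model library, by 2.81-fold (log2 fold change 1.49 ± 0.07, adjusted p = 2.4e-11). Of 8 vitamin D response genes tested, 4 were higher and 3 lower in IsoL, with a median log2 fold change of 0.24, and Cyp27b1, which makes the active hormone, did not pass the filter. Trpv6, an epithelial calcium channel, had 15.5, 13.7, 15.9 and 13.2 CPM in IsoL and 7.77, 6.62, 6.06 and 7.52 CPM in Model. S100g, the calcium-binding protein calbindin-D9k, had 4.06, 2.46, 2.87 and 4.47 CPM in IsoL against 1.54, 0.887, 1.14 and 1.33 CPM in Model. Both rose without overlap, by 1.06 ± 0.11 and 1.51 ± 0.25 on the log2 scale. Their Blank levels differed. Trpv6 averaged 14.4 ± 0.551 CPM in Blank, near its IsoL mean of 14.6 CPM and above every Model library. S100g averaged 0.0144 ± 0.0288 CPM in Blank, below both groups. Cd14, the lipopolysaccharide co-receptor that vitamin D induces in myeloid cells, went the other way, at 111, 122, 104 and 84.5 CPM in IsoL and 758, 706, 725 and 752 CPM in Model, a fall of 6.97-fold (adjusted p = 1.0e-13). Vdr, the receptor itself, did not pass the test (0.15 ± 0.06, adjusted p = 0.0584).

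Of 6 epithelial alarmin and alarmin receptor genes tested 1 was higher and 3 lower, with a median of -0.31, and Il25 did not pass the filter. Tslp, on chromosome 18, was the one that rose. It had 828, 936, 799 and 848 CPM in IsoL, against 160, 190, 184 and 227 CPM in Model, and 5.23 ± 1.43 CPM in Blank. Every IsoL library was above every Model library, and both groups were far above Blank, with a 4.48-fold rise (log2 fold change 2.16 ± 0.09, adjusted p = 2.0e-12). Il33, the other alarmin of the list that passed the filter, had 304, 316, 295 and 332 CPM in IsoL and 275, 325, 285 and 311 CPM in Model, and the groups overlapped (adjusted p = 0.437). Of the 4 receptor genes of the list 3 were lower in IsoL. Crlf2, the TSLP receptor chain, had 6.52, 4.27, 6.69 and 3.32 CPM in IsoL and 8.87, 8.64, 7.47 and 8.25 CPM in Model. Its partner Il7r had 24.4, 22.4, 28.4 and 27.1 CPM in IsoL and 76.8, 70.6, 67.6 and 81.5 CPM in Model, and the IL-33 receptor Il1rl1 had 21, 20.1, 19.7 and 21.3 CPM in IsoL and 81.7, 76.7, 70.6 and 89.3 CPM in Model. None of these 3 receptors overlapped between the groups, and they fell by 1.6-fold, 2.9-fold and 3.87-fold (adjusted p = 0.00528, 7.4e-11 and 1.2e-12). Il17rb, a chain of the IL-25 receptor, had 8.46, 7.75, 10.1 and 8.53 CPM in IsoL and 6.38, 8.1, 6.93 and 8.25 CPM in Model and did not pass (0.23 ± 0.13, adjusted p = 0.151).

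The other genes with the largest rises were of several kinds. Rps2, a protein of the small ribosomal subunit, had 326, 253, 321 and 283 CPM in IsoL against 24.8, 24.7, 25 and 23.7 CPM in Model and 84.3 ± 5.07 CPM in Blank, so that the Model libraries were the lowest of the 3 groups. Of the 50-base words of its transcripts, 43.0% also occur in another gene, mostly processed copies such as Rps2-ps10, and how the counting shared such reads is not given, so its level is uncertain. Ecel1, an endothelin-converting-enzyme-like protease best known from neurons, had 34, 26, 26.7 and 25.7 CPM in IsoL, 3.52, 4.08, 4.71 and 3.53 CPM in Model and 0.0711 ± 0.0851 CPM in Blank. Gsta1, a glutathione transferase, rose 6.75-fold, to 12.8 ± 2.19 CPM in IsoL against 1.88 ± 0.396 CPM in Model (n = 4 each), and 90.5% of its words also occur in other genes of the family. Shared stretches of 20% or more of the words were also found, among genes named in the following paragraphs, for C1s1, Ccnd1, Chil3, Ctsd, Ctsl, Cxcl11, Dnaja1, Gapdh, Hspa1b, Ifit3b, Il11ra1, Krt16, Pes1, Slc15a3 and Stfa2l1, whose levels carry the same uncertainty. The secretoglobins Scgb1b27 and Scgb2b27 rose 5.31-fold and 3.68-fold, Krt4, a keratin of mucosal epithelia, 4.78-fold, Rbp7, a retinol-binding protein, 4.42-fold, and Psca, a small surface protein of epithelia, 3.51-fold. Serpina12, the serpin vaspin, had 214, 186, 156 and 197 CPM in IsoL and 53, 56.2, 55.1 and 51.5 CPM in Model, a 3.49-fold rise, beside 169 ± 4.29 CPM in Blank.

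The largest falls were mostly in genes of granulocytes and activated macrophages. Slfn4, a schlafen gene of myeloid cells, was the most abundant of them, at 155, 261, 160 and 181 CPM in IsoL against 2990.5, 2681, 2649 and 3089 CPM in Model. Acod1, which makes itaconate in activated macrophages and neutrophils, had 23.7, 30.1, 25.9 and 17.8 CPM in IsoL against 378, 329, 356 and 367 CPM in Model. Olr1, a receptor for oxidised lipoprotein, had 2.74, 2.83, 2 and 4.29 CPM in IsoL against 45.8, 35, 40.3 and 38 CPM in Model. These genes did not overlap and fell by 15.1-fold, 14.7-fold and 13.3-fold, and all 3 were lower still in Blank, at means of 21, 0.519 and 0.24 CPM. Among genes with a mean FPKM of 5 or more in the higher group, 3 lay at least 5-fold below every library of both other groups, the class I genes H2-T22, H2-T23 and H2-T24, described with antigen presentation.

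**Figure D2:**
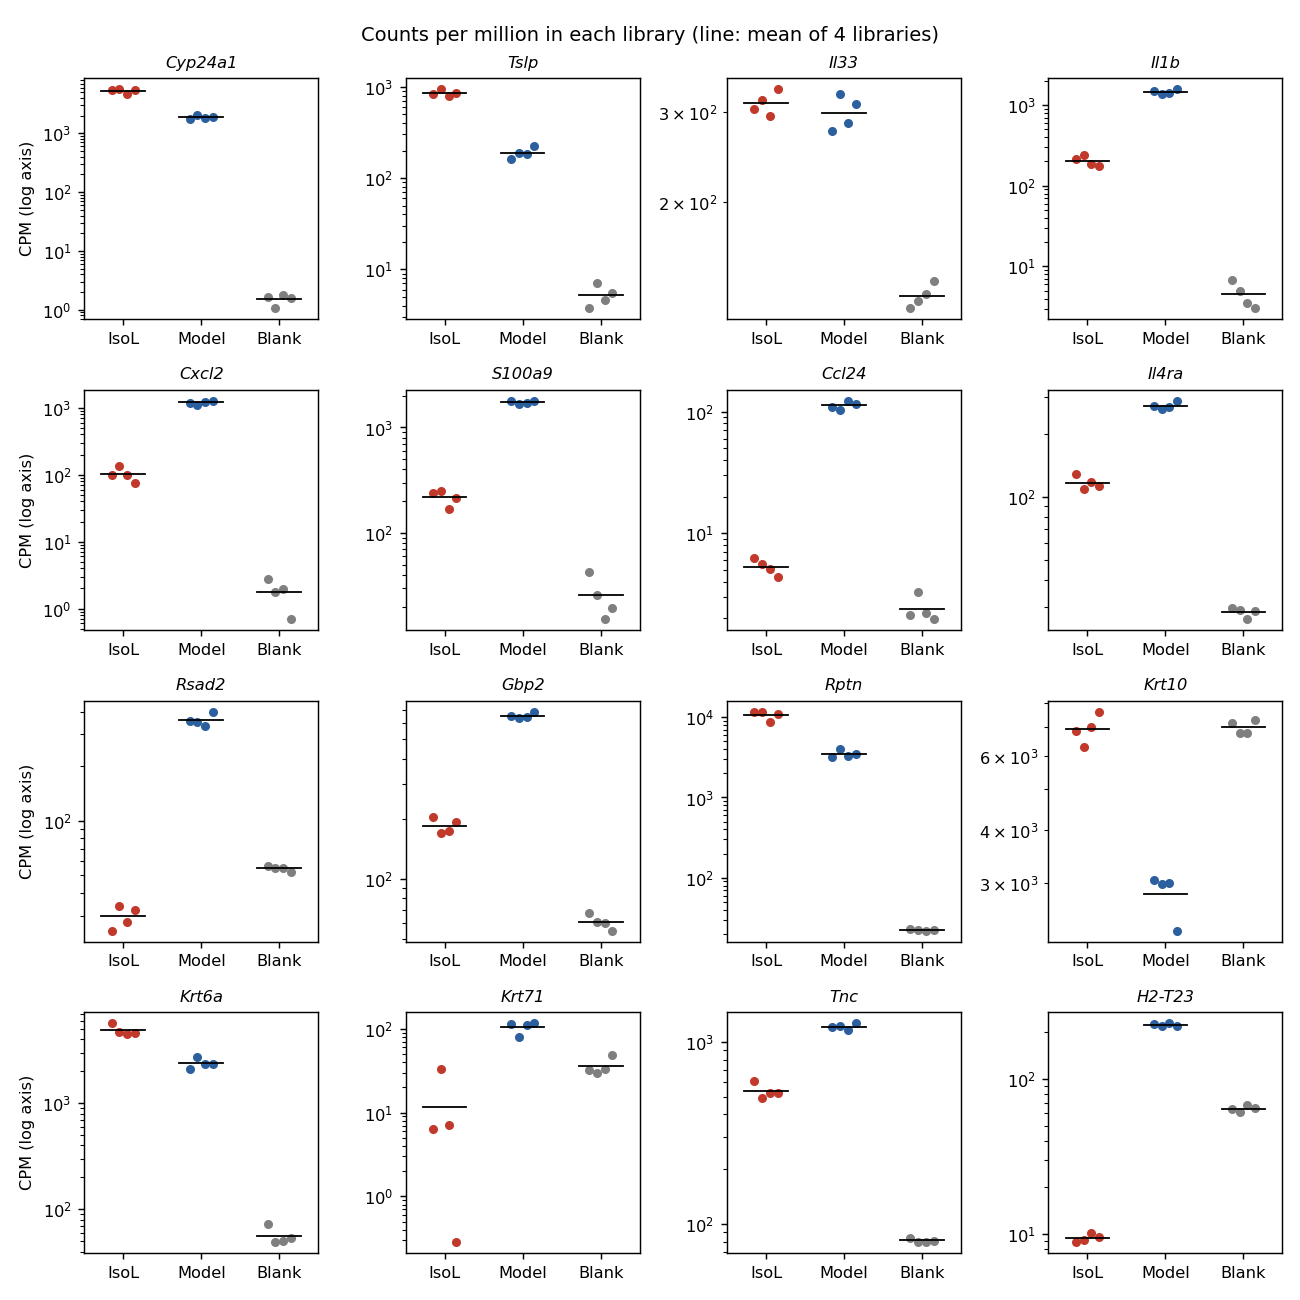
CPM on a log axis in each of the 4 IsoL, 4 Model and 4 Blank libraries for 16 genes, with the mean of each group as a line. Tslp and Cyp24a1 are highest in IsoL, the inflammatory genes Il1b, Cxcl2, S100a9 and Ccl24 are highest in Model, and Rsad2 and H2-T23 in IsoL lie below Blank.

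Genes of type 2 immunity, the arm driven by IL-4 and IL-13, were lower in IsoL or did not pass. Of 8 tested, 6 were lower and 0 higher, with a median of -1.13, and Il5, Il9, Il13 and Il5ra did not pass the filter. Il4, the cytokine that instructs type 2 T cells, had 3.32, 2.46, 1.75 and 2.23 CPM in IsoL, against 6.23, 5.68, 5.72 and 5.52 CPM in Model, and 2.18 ± 0.755 CPM in Blank. The IsoL libraries lay around the level of untreated ears, and the fall was 2.36-fold (adjusted p = 2.3e-05). Il4ra, the receptor chain shared by IL-4 and IL-13, had 128, 109, 118 and 112 CPM in IsoL and 272, 261, 268 and 287 CPM in Model, a 2.32-fold fall. Il13ra2, a decoy receptor of IL-13, fell 2.69-fold and Csf2rb, the common chain of the IL-3, IL-5 and GM-CSF receptors, 3.04-fold. Stat6, which carries the IL-4 signal (-0.09 ± 0.05, adjusted p = 0.122), and Gata3, the type 2 transcription factor (0.07 ± 0.09, adjusted p = 0.545), did not pass the test.

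Several cytokines of the type 2 and type 17 arms were too low for the test across genes and were compared by their counts. Il13 had 11, 4, 6 and 6 counts in the IsoL libraries, against 17, 13, 20 and 12 in the Model libraries and 13 in Blank in all. Il17a had 0, 0, 2 and 0 counts in IsoL, against 2, 4, 4 and 7 in Model and 0 in Blank. For both genes the CPM values of the groups did not overlap, with ratios of 0.375 for Il13 (95% counting interval 0.229 to 0.598) and 0.101 for Il17a (0.0113 to 0.427). For Il17a the lack of overlap rests on the scaling by library size, because IsoL-3 and Model-1 both held 2 counts. A two-sided exact permutation test gave p = 0.0286 for each gene, the smallest that 4 against 4 libraries allow. It became 0.114 after adjustment over the 8 low cytokines and so missed the threshold. Il17f had 14 counts in IsoL against 25 in Model, Il5 had 18 against 15, Il22 had 4 against 3 and Il25 had 2 against 7, with exact permutation p-values of 0.143, 0.686, 1.0 and 0.429. Il9 had 0 counts in IsoL and 4 in Model, and Il31, the itch cytokine, 0 and 1. The counting intervals of their ratios reached 1.3 and 33.6, so that a difference was not detectable at this depth. Intervals and floors of counts cover counting error only.

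Around the low Il17a counts, the IL-17, IL-23 and IL-20 genes went both ways, 5 higher and 5 lower of 12 tested, with a median of 0.09. Il23a, the subunit specific to IL-23, had 0.629, 0.601, 0.437 and 0.344 CPM in IsoL and 3.89, 3.43, 4.44 and 2.53 CPM in Model, a 7-fold fall. Il19, a keratinocyte cytokine of the IL-20 family, had 27.4, 27.2, 24.4 and 32.1 CPM in IsoL and 72.2, 83, 61.7 and 78.5 CPM in Model, a 2.66-fold fall, and Il24 fell 1.88-fold. Nfkbiz, the nuclear cofactor of the IL-17 response, fell 1.93-fold and the receptor chain Il17ra 1.67-fold. The 5 risers were Il17re, Traf3ip2, an adaptor of the IL-17 receptor, and receptor chains found on epithelial cells. Il17rc rose by 0.70 ± 0.09, Il22ra1, the IL-22 receptor chain, by 0.87 ± 0.12 and Il20rb, a chain of the IL-20 receptors, by 0.60 ± 0.09 on the log2 scale.

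Of the 17 IL-1 family genes tested, 6 were higher and 9 lower, with a median of -0.35. Il1b, the main IL-1 of myeloid cells, had 213, 242, 185 and 174 CPM in IsoL, against 1503, 1374, 1411 and 1565 CPM in Model, and 4.57 ± 1.64 CPM in Blank. Nlrp3, the inflammasome sensor through which IL-1 beta is matured, had 18.9, 26.7, 17.7 and 17.6 CPM in IsoL, against 189, 174, 178 and 177 CPM in Model, and 0.849 ± 0.192 CPM in Blank. Both fell without overlap, by 7.18-fold and 8.87-fold (adjusted p = 1.1e-13 and 1.3e-13), and IsoL stayed above Blank. The receptor antagonist Il1rn fell 3.64-fold, the decoy receptor Il1r2 2.66-fold and the signalling receptor Il1r1 1.84-fold, beside the protease Casp1 at 1.75-fold. Il36b, an IL-1 relative of keratinocytes, had 142, 141, 108 and 156 CPM in IsoL and 60.7, 67.7, 69 and 61.7 CPM in Model, and the antagonist Il36rn had 467, 420, 370 and 461 CPM in IsoL and 208, 237, 218 and 191 CPM in Model. These 2 rose without overlap, by 2.11-fold and 2.01-fold, and Il36g rose 1.4-fold.

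Of 13 genes of the IL-6 and oncostatin family, 11 were lower and 2 higher, with a median of -0.47. Osm, oncostatin M, had 20.1, 25.2, 17 and 15.1 CPM in IsoL, against 166, 143, 157 and 164 CPM in Model, and 0.436 ± 0.235 CPM in Blank, and fell 8.14-fold. Il6 had 8.35, 9.38, 6.94 and 9.05 CPM in IsoL and 31.8, 30.2, 25.2 and 33.6 CPM in Model, a 3.58-fold fall, and Socs3, the feedback inhibitor that the family induces, fell 2.87-fold. Against these, Clcf1, a cytokine that acts through gp130, and the receptor chain Il11ra1 rose by 0.21 ± 0.08 and 0.21 ± 0.08 on the log2 scale, and the libraries of Il11ra1 overlapped. Both lost the call in at least 1 other setting. Tnf, whose product starts much of the local response, had 6.52, 7.45, 8 and 5.84 CPM in IsoL and 43, 39.9, 40.1 and 41.5 CPM in Model, a 5.92-fold fall. Of the 13 TNF family and NF-kB feedback genes tested 12 were lower and 0 higher, with a median of -1.0. Tnfaip3, the ubiquitin-editing inhibitor A20, fell 4.12-fold, Tnfrsf1b, the second TNF receptor, 3.61-fold and Nfkbia, the inhibitor of NF-kB, 2.03-fold.

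Neutrophil attractants and neutrophil genes were among the lowest lists. All 8 tested neutrophil chemokines, growth factors and receptors were lower, with a median of -2.04, and Csf2 did not pass the filter. Cxcl2, a ligand of the receptor CXCR2, had 99.1, 133, 98.2 and 75.8 CPM in IsoL, against 1198, 1107, 1223 and 1276 CPM in Model, and 1.79 ± 0.863 CPM in Blank. Csf3, which drives neutrophil production, had 2.29, 1.56, 2.5 and 0.802 CPM in IsoL, against 11.6, 14.6, 14.3 and 16.7 CPM in Model, and 0.0146 ± 0.0293 CPM in Blank. Cxcl3, a second ligand of the same receptor, had 15.2, 17.7, 15.1 and 13.5 CPM in IsoL and 162, 149, 163 and 157 CPM in Model. The groups did not overlap for any of the 3, which fell 11.8-fold, 8.02-fold and 10.3-fold (adjusted p = 2.9e-13, 3.1e-09 and 2.7e-15). Cxcl5 and Cxcl1, made largely by epithelium and stroma, fell 3.42-fold and 3.43-fold.

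Of 21 neutrophil genes tested, 17 were lower and 4 higher, with a median of -2.82, and the granule genes Camp, Ltf, Mpo, Elane and Prtn3 did not pass the filter. The summed level of the 21 genes was 1594 to 2046 CPM in IsoL, 5424 to 5895 CPM in Model and 58.1 to 114 CPM in Blank. Much of the IsoL sum came from members that rose. Stfa2 and Stfa3 averaged 626 and 551 CPM in IsoL, against 305 and 355 CPM in Model. The sum thus understates the fall of the 17 lowered members. Ly6g, the defining surface marker, had 0.286, 0.12, 0.187 and 0.172 CPM in IsoL and 4.47, 4.97, 4.04 and 5.92 CPM in Model, and no count in Blank. Retnlg, a secreted protein of neutrophils, had 4.86, 5.11, 2.75 and 3.03 CPM in IsoL and 100, 99.1, 93.4 and 104 CPM in Model, and Mmp8, neutrophil collagenase, had 6.17, 6.91, 5.56 and 5.9 CPM in IsoL and 77.6, 73.4, 73.9 and 82.6 CPM in Model. They did not overlap and fell 24.3-fold, 25.1-fold and 12.5-fold, beside 6.96-fold and 8-fold for the calprotectin subunits S100a8 and S100a9, which keratinocytes also make. The 4 list members that went up were Padi4, an enzyme that citrullinates histones (3.06-fold), and the stefins Stfa1 (1.82-fold), Stfa2 (2.05-fold) and Stfa3 (1.55-fold), cystatin-type protease inhibitors. Csta1, a stefin gene outside this list, also rose, by 2.08-fold. Which cells made the stefin transcripts was not tested, so their rise is no measure of neutrophils. Padi4 had 59.3, 66.3, 47.6 and 49.9 CPM in IsoL, against 20.5, 17.4, 18.5 and 16.6 CPM in Model, and 1.15 ± 0.298 CPM in Blank. It was thus highest in IsoL, in contrast to Ly6g. Of the words of Stfa1 22.5% also occur in other genes, mostly in BC100530, and 15.9% of those of Stfa2, mostly in Stfa2l1, so that both levels are uncertain, while Stfa3 shares none.

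Of 20 monocyte and macrophage genes tested 19 were lower and 1 higher, with a median of -1.06, and their summed level was 2360 to 2805 CPM in IsoL, 4946 to 5441 CPM in Model and 550 to 583 CPM in Blank. Among general macrophage markers Adgre1 (F4/80) fell 1.43-fold, Csf1r, the CSF-1 receptor, 1.71-fold and Cd68 2.04-fold. Nos2, inducible nitric oxide synthase, had 1.09, 1.02, 1 and 1.2 CPM in IsoL, against 22.5, 21.9, 21.3 and 19.8 CPM in Model, and 0.285 ± 0.229 CPM in Blank. Chil3, the chitinase-like protein Ym1, had 21.6, 17.5, 17 and 18.6 CPM in IsoL and 241, 210, 232 and 236 CPM in Model, and Arg1, arginase, had 202, 162, 126 and 182 CPM in IsoL and 872, 781, 840 and 846 CPM in Model. Nos2, a marker of classical activation, and Chil3 and Arg1, markers of IL-4 activation, all fell without overlap, by 19.7-fold, 12.3-fold and 4.96-fold. Ly6c2, of inflammatory monocytes, fell 5.22-fold. Marco, a scavenger receptor, was the single riser (0.48 ± 0.15, adjusted p = 0.0144), and it was not called without IsoL-1 or without Model-2. Of 12 monocyte chemokines and receptors 10 were lower, with a median of -1.20, led by Ccl4 (13.2-fold) and Ccl3 (9.15-fold), inflammatory chemokines of macrophages, and Ccr1 (4.96-fold), while Ccl2, the main ligand of CCR2, fell 2.09-fold.

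All 7 tested genes of the eosinophil list, which includes the chemokine Ccl24, were lower, with a median of -3.20. The granule genes Prg2, Epx and Ear1 did not pass the filter. Ccl24, eotaxin-2, had 6.29, 5.59, 5.06 and 4.35 CPM in IsoL, against 110, 104, 123 and 116 CPM in Model, and 2.4 ± 0.593 CPM in Blank. Its receptor Ccr3 had 1.31, 0.902, 1.25 and 1.15 CPM in IsoL and 20.3, 15.6, 16.8 and 19.4 CPM in Model, and Siglecf, an eosinophil lectin, had 0.457, 0.721, 0.812 and 0.63 CPM in IsoL and 7.11, 5.56, 6.19 and 5.32 CPM in Model. No library of one group reached the other, and the falls were 21.2-fold, 15.5-fold and 9.16-fold. Ccl11, eotaxin-1, fell only 1.44-fold. The summed level of the list was 38.2 to 43.6 CPM in IsoL, 186 to 209 CPM in Model and 22.5 to 25.7 CPM in Blank. Much of the Model sum came from Ccl24, at a mean of 113 CPM, against 18 CPM for Ccr3 and 6.05 CPM for Siglecf. The sum thus follows this chemokine more than Ccr3 or Siglecf and is no measure of eosinophils.

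Of 14 basophil and mast cell genes 3 were higher and 5 lower, with a median of -0.13, against 23.2% higher and 24.7% lower over all genes. Kit, the stem cell factor receptor, Cpa3, Mcpt4, Fcer1a and Ms4a2 did not pass the test, with log2 fold changes of -0.10, 0.04, 0.02, 0.04 and -0.15. Mcpt8, a basophil protease, fell 1.97-fold. The proteases of mucosal mast cells were also lower, Mcpt1 at 2.17, 2.1, 1.44 and 2.18 CPM in IsoL and 10.8, 9.17, 8.82 and 12.3 CPM in Model and Mcpt2 at 1.14, 0.361, 0.437 and 1.03 CPM in IsoL and 8.87, 7.04, 8.95 and 8.18 CPM in Model, and neither had a count in Blank. They fell 5.16-fold and 10.9-fold. Tpsab1, a mast cell tryptase, had 16.3, 12.7, 10.9 and 15 CPM in IsoL and 26.4, 26.3, 26.9 and 31.1 CPM in Model, a 2.01-fold fall without overlap. Mrgprb1 and Mrgprb2, receptors of connective tissue mast cells, rose 2.23-fold and 1.74-fold.

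Of 14 T, NK and B cell genes tested 9 were lower and 0 higher, with a median of -0.61, and 7 of the list, among them Cd8a, Foxp3 and Cd79a, did not pass the filter. Gzmb, the cytotoxic protease granzyme B, had 10.5, 9.14, 10.8 and 10.2 CPM in IsoL and 29.4, 34.4, 26.3 and 28.6 CPM in Model, a 2.93-fold fall, Ctla4, an inhibitory receptor of T cells, fell 2.25-fold and Cd4 1.54-fold. Cd3e, part of the T cell receptor complex (-0.32 ± 0.20, adjusted p = 0.212), did not pass. Their summed level was 90.5 to 112 CPM in IsoL, 163 to 172 CPM in Model and 54.5 to 60.9 CPM in Blank. Of 10 dendritic cell genes 3 were higher and 3 lower, near the shares of all genes tested (23.2% and 24.7%), with a median of -0.03. Itgax (CD11c) had 30.5, 26.5, 24.4 and 26.7 CPM in IsoL and 84.7, 75.4, 83.9 and 78.2 CPM in Model, a 2.97-fold fall, whereas Cd207, the Langerhans cell lectin langerin, had 10.7, 9.5, 9.5 and 10.4 CPM in IsoL and 5.94, 6.98, 6.6 and 4.46 CPM in Model, a 1.67-fold rise, and averaged 27.6 CPM in Blank. Ccl22, a chemokine of dendritic cells, rose 1.93-fold, and the interferon-inducible chemokines Cxcl9, Cxcl10 and Cxcl11 fell 2.28-fold, 2.76-fold and 3.37-fold among 17 skin-homing and lymphoid chemokine genes, 9 lower and 1 higher.

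Each of the 26 type I interferon-stimulated genes was lower in IsoL, against 24.7% of all genes tested, with a median of -1.75 and no overlap between the groups for any. Rsad2, the antiviral enzyme viperin, had 24.8, 34, 27.7 and 32.4 CPM in IsoL, against 358, 350, 334 and 399 CPM in Model, and 54.7 ± 1.86 CPM in Blank. Ifit1, an RNA-binding antiviral protein, had 26.9, 34.8, 31.1 and 34.4 CPM in IsoL, against 159, 165, 156 and 178 CPM in Model, and 111 ± 1.8 CPM in Blank. Oas3, a sensor of double-stranded RNA, had 16.8, 15.9, 18.1 and 18 CPM in IsoL, against 93.9, 95, 95.1 and 98.6 CPM in Model, and 23.6 ± 0.778 CPM in Blank. In these 3 genes the IsoL libraries lay below the untreated ears as well as below the Model ears, and they fell 12.1-fold, 5.18-fold and 5.57-fold (adjusted p = 8.3e-15, 1.4e-13 and 1.0e-14). Ifit3b fell 5.61-fold, Oasl1 7.12-fold, Ifit2 6.22-fold and Cmpk2, a mitochondrial nucleotide kinase, 6.24-fold. Among the transcription factors of the pathway Irf7 fell 3.43-fold, Stat2 1.95-fold and Irf9 1.49-fold. Every IsoL library lay below every Blank library for 23 of the 26 genes, against 28.8% of all genes tested, and every Model library lay above every Blank library for 22, against 35.8%.

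The interferon-stimulated response element is the sequence through which STAT2 and IRF9 act. Promoters are shown for the 4 members with the largest falls among those whose promoter holds a match to its core. That each of the 4 holds a match therefore follows from this choice. The sequences are from RefSeq (GRCm38.p6), from 250 bases before to 50 bases after the gene's start, read 5′ to 3′ on the strand of the gene, with matches on either strand to its core, GAAANN followed directly by GAAA, in capitals.
Rsad2, chr12:26456403-26456702, minus strand: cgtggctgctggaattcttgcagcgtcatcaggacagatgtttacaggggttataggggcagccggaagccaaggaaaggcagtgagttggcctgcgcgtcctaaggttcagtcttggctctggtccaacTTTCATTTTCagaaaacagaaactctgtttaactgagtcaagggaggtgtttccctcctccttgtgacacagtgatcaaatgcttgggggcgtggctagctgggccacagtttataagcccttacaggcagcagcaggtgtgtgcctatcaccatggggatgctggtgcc
Ifit3b, chr19:34607707-34608006, plus strand: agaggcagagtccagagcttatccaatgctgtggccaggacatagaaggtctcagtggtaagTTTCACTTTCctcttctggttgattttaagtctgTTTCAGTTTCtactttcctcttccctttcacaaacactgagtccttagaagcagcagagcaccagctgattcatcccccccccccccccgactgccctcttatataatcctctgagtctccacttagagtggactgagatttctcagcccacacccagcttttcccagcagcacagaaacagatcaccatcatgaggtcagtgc
Oas3, chr5:120777610-120777909, minus strand: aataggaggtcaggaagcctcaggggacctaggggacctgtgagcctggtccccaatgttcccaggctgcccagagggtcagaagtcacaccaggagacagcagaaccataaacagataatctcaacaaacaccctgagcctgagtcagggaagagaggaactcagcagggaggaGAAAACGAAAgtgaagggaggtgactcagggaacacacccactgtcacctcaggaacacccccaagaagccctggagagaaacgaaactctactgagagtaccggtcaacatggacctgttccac
Ifit1, chr19:34640639-34640938, plus strand: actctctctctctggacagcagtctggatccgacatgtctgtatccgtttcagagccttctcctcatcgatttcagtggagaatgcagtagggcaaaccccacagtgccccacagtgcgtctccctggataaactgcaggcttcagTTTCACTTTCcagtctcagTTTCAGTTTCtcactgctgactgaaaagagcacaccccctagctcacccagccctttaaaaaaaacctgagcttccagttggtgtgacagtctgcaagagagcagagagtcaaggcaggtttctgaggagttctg
Ifit1 and Ifit3b each held 2 matches and Rsad2 and Oas3 held 1 each. Of the 18 called type I genes with a promoter in the table, 10 (55.6%) held a match, and of the 13 called interferon-gamma-inducible genes, 10 (76.9%) did, against 943 of 27025 promoters (3.49%) in the whole table and 1 of 24 (4.17%) of the epidermal differentiation genes that rose. A match is a description of the letters and not a measured binding site.

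The GTPases and factors that interferon-gamma induces were lower in 16 of 17 and higher in 0, with a median of -1.39. Gbp2, a guanylate-binding protein, had 204, 169, 174 and 193 CPM in IsoL, against 651, 640, 646 and 683 CPM in Model, and 61.1 ± 5.27 CPM in Blank. Ifi47, an immunity-related GTPase, had 42.4, 38.8, 41.5 and 41.3 CPM in IsoL and 163, 154, 149 and 157 CPM in Model, and Irf1, a transcription factor of the interferon response, had 98.7, 81, 90.3 and 89.2 CPM in IsoL and 245, 221, 230 and 242 CPM in Model. They did not overlap and fell 3.54-fold, 3.8-fold and 2.61-fold, and all their IsoL libraries stayed above the mean of Blank, at 61.1, 20.6 and 34.4 CPM. Over the list every IsoL library lay below every Blank library for 1 gene and above every Blank library for 9, against 35.3% of all genes tested. Ciita, the master factor of class II expression, did not pass (-0.11 ± 0.11, adjusted p = 0.435).

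**Figure D3:**
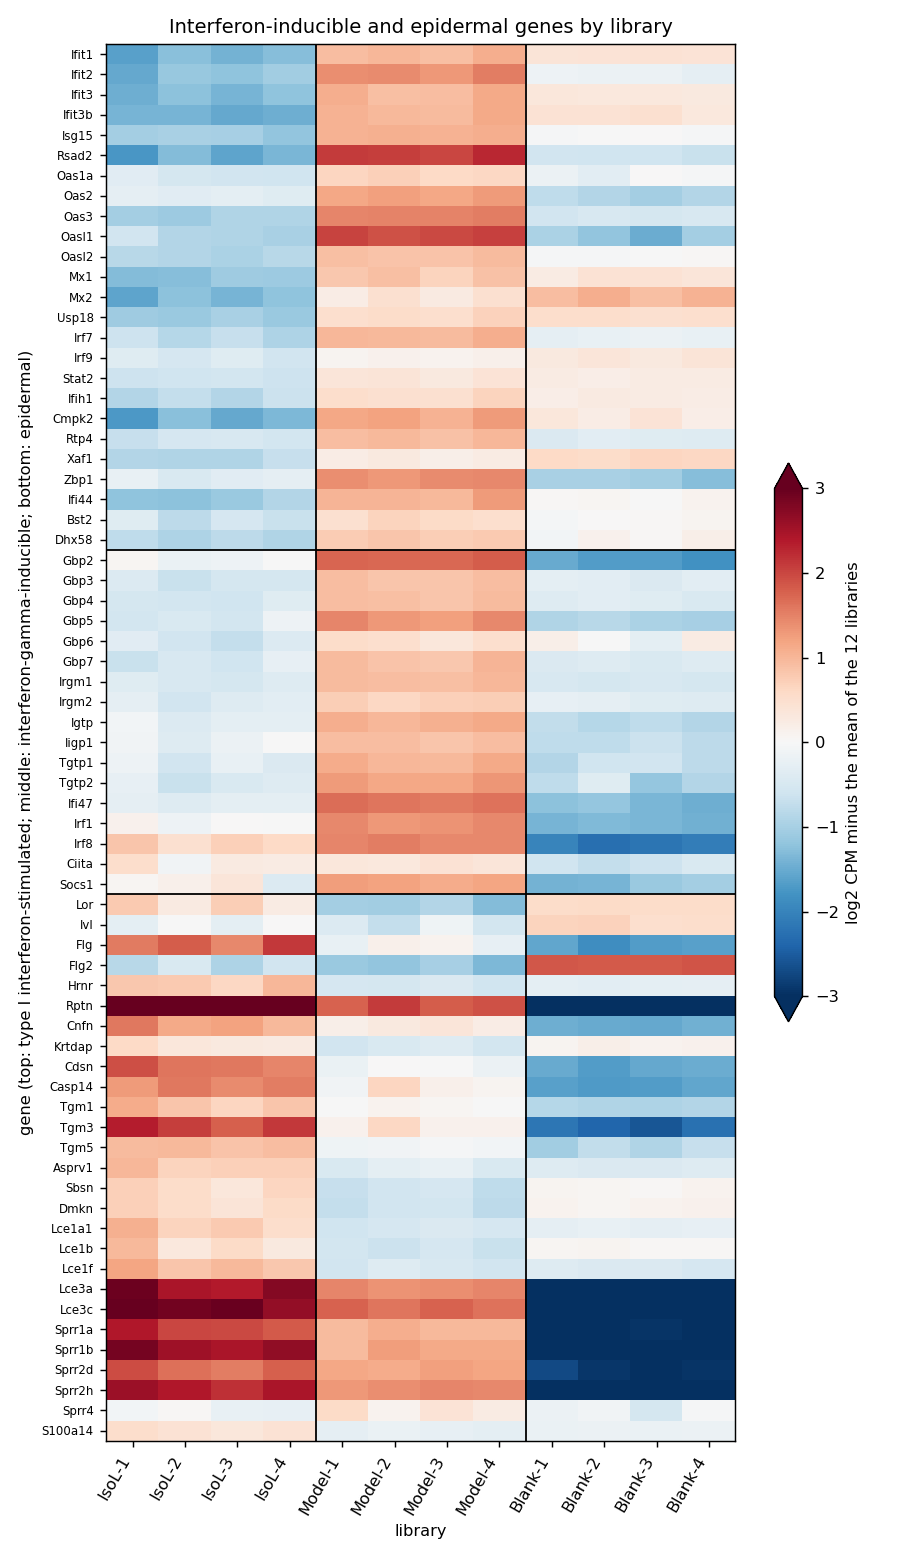
Log2 CPM of each gene minus its mean over the 12 libraries, for 25 of the 26 type I interferon-stimulated genes (top), 17 interferon-gamma-inducible genes (middle) and 27 epidermal differentiation genes (bottom), in the IsoL, Model and Blank libraries from left to right. The type I genes are lowest in IsoL for the IFIT genes, Rsad2 and Mx2, and the epidermal genes are higher in IsoL than in Model with the exception of Sprr4.

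Class I antigen presentation genes were lower in 12 of 13 and higher in 0, with a median of -0.78. B2m, the light chain of class I, had 879, 819, 855 and 932 CPM in IsoL and 1461, 1468, 1476 and 1597 CPM in Model, a 1.72-fold fall, the immunoproteasome subunit Psmb8 fell 1.84-fold and the peptide transporter Tap1 1.75-fold. H2-K1 fell 1.39-fold and H2-D1 did not pass (0.06 ± 0.06, adjusted p = 0.433). The non-classical gene H2-T23 (Qa-1) had a far larger difference. It had 8.86, 9.14, 10.1 and 9.51 CPM in IsoL, against 227, 221, 228 and 220 CPM in Model, and 63.9, 61.1, 68 and 64.5 CPM in Blank. H2-T22 had 4.86, 5.23, 4.12 and 5.04 CPM in IsoL, against 181, 191, 184 and 180 CPM in Model, and 66.2, 66.9, 73.6 and 66.2 CPM in Blank. H2-T24 had 4.34, 4.51, 4.62 and 4.29 CPM in IsoL, against 89.2, 84.1, 81.9 and 96.7 CPM in Model, and 44.8, 48.6, 44.1 and 44.8 CPM in Blank. The IsoL libraries of all 3 genes were within a narrow range of one another, and each lay more than 5-fold below every Model and every Blank library. The folds below Model were 23.8, 38.1 and 19.8 (adjusted p = 7.3e-18, 7.3e-18 and 7.8e-16). The labels give no strain of the animals, so that a difference in the genotype of this region between the groups and an effect of the treatment cannot be told apart. The 3 genes are neighbours on chromosome 17, and 53.5% of the words of H2-T22 also occur in other genes, mostly in H2-T10. Of 8 class II genes 3 were lower and 0 higher, against 24.7% and 23.2% of all genes tested, with a median of -0.19. Among the lower ones was Ctss, the protease that trims the invariant chain (2.89-fold), while H2-Ab1 and Cd74 did not pass the test.

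Sensors and effectors of innate immunity were lower as well. All 15 pattern recognition receptor genes were lower, with a median of -1.28. Clec7a (Dectin-1), a receptor for fungal glucans, had 144, 150, 126 and 145 CPM in IsoL, against 848, 775, 835 and 846 CPM in Model, and 5.63 ± 1.13 CPM in Blank, a 5.84-fold fall. Tlr13 and Tlr6 fell 3.41-fold and 3.43-fold, whereas the adaptor Myd88 fell 1.39-fold. Of 15 complement genes 14 were lower and 0 higher, with a median of -0.51, from C5ar1, the C5a receptor of neutrophils and macrophages (3.11-fold), to C1s1 (1.23-fold). Of 16 eicosanoid genes 4 were higher and 8 lower. The leukotriene and 15-lipoxygenase genes Alox5, Alox5ap, Ltc4s and Alox15 fell (1.68-fold, 1.82-fold, 1.64-fold and 4.62-fold), and the prostaglandin synthesis genes Ptgs1, Ptgs2, Ptges and Ptgds rose (1.52-fold, 1.34-fold, 1.4-fold and 2.78-fold). The prostaglandin receptor genes Ptger2, Ptger4 and Ptgir fell, 2.74-fold, 1.21-fold and 1.43-fold, and Ptger2 had 2.97, 2.7, 2.5 and 3.32 CPM in IsoL and 7.55, 8.87, 7.41 and 7.72 CPM in Model, without overlap. Ptgs2, cyclooxygenase-2, had 464, 611, 379 and 650 CPM in IsoL and 384, 426, 345 and 415 CPM in Model, with overlap, and 2.68 ± 0.842 CPM in Blank, and it was not called with limma.

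Most lists of epidermal genes had medians above 0.5. Of 27 epidermal differentiation genes tested 26 were higher and 1 lower, against 23.2% higher over all genes, with a median of 1.19. Rptn, repetin, an S100 fused-type protein of the cornified envelope, had 11576, 11449, 8701 and 10807 CPM in IsoL, against 3184, 4023, 3299.5 and 3522 CPM in Model, and 22.5 ± 0.565 CPM in Blank. Flg, whose product filaggrin bundles keratins in the outer epidermis, had 1369.6, 1627, 1268 and 2006 CPM in IsoL, against 399, 517, 498 and 389 CPM in Model, and 144 ± 13.1 CPM in Blank. Lor, loricrin, the main envelope protein, had 612, 433, 600 and 420 CPM in IsoL, against 175, 172, 194 and 145 CPM in Model, and 524 ± 6.42 CPM in Blank. All 3 rose without overlap, 3.03-fold, 3.48-fold and 3.01-fold (adjusted p = 2.3e-10, 2.5e-09 and 4.5e-09). Rptn and Flg were lowest in Blank, whereas the Blank mean of Lor lay among its IsoL libraries and above every Model library. Flg2, filaggrin-2, rose only 1.38-fold, to 367 ± 54.8 CPM in IsoL against 266 ± 26.5 CPM in Model, and averaged 2137 ± 30.5 CPM in Blank. Tgm3, a crosslinking transglutaminase, rose 3.55-fold, Cdsn, corneodesmosin, 3.36-fold and Sprr1b, a small proline-rich protein, 2.87-fold. The exception was Sprr4, which fell 1.39-fold at 6.69, 7.33, 6.06 and 6.01 CPM in IsoL and 10.7, 7.63, 9.56 and 8.51 CPM in Model.

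The promoters of the loricrin and dermokine genes are shown because they are the members with the largest rises that hold the AP-1 consensus TGACTCA, a site of FOS and JUN factors, given in capitals and read as above (RefSeq, GRCm38.p6). Dmkn, which encodes the secreted epidermal protein dermokine, rose 2.32-fold.
Lor, chr3:92083093-92083392, minus strand: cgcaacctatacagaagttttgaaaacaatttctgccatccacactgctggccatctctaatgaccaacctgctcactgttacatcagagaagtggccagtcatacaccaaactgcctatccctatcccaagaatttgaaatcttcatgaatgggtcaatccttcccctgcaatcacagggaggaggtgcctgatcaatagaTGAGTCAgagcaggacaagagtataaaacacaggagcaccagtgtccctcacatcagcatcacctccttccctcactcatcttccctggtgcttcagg
Dmkn, chr7:30763506-30763805, plus strand: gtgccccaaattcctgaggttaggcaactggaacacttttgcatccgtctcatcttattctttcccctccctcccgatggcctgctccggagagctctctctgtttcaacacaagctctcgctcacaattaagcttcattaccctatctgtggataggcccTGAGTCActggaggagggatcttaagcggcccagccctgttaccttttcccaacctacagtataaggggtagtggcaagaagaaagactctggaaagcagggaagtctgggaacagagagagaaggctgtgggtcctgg
The match starts 48 bases before the gene start in Lor and 89 bases before it in Dmkn. Of the 24 epidermal differentiation genes that rose and have a promoter in the table, 8 (33.3%) held the consensus, against 1396 of 27025 promoters (5.17%). The looser pattern TGANTCA, which contains it, was in 12 of the 24 (50%), against 2144 of all promoters (7.93%). The interferon core was in 1 of the same 24.

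Barrier lipid genes, which make and process the ceramides of the outer epidermis, were higher in 16 of 18 and lower in 1, with a median of 0.79. Alox12b, a lipoxygenase that acts on these ceramides, had 178, 133, 136 and 161 CPM in IsoL and 52.6, 57.9, 58.4 and 50 CPM in Model, a 2.78-fold rise. Sult2b1, which makes cholesterol sulfate, rose 2.36-fold, Smpd3 2.34-fold and the lipid transporter Abca12 1.83-fold. Asah1, the lysosomal acid ceramidase, fell 1.41-fold.

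Keratins of activated and of normal epidermis both rose. All 5 keratins of activated epidermis were higher, with a median of 1.13. Krt16 had 4683, 3514, 3747 and 3936 CPM in IsoL, against 1369.8, 1831, 1718 and 1562 CPM in Model, and 38.3 ± 8.57 CPM in Blank. Krt6a had 5656, 4725, 4487 and 4632 CPM in IsoL, against 2102, 2715, 2353 and 2359.7 CPM in Model, and 56.6 ± 11 CPM in Blank. Both were higher in IsoL without overlap, 2.45-fold and 2.05-fold above Model, although Krt6a and Krt6b share many stretches (57.2% of the words of Krt6a) and their separate levels are uncertain. The suprabasal keratin Krt10 had 6856, 6287, 7020.5 and 7605 CPM in IsoL, against 3052, 2985, 2997 and 2320.02 CPM in Model, and 6999.6 ± 259 CPM in Blank. It rose 2.45-fold, and the Blank mean lay among the IsoL libraries. Of 12 basal, suprabasal and mucosal keratins, 11 were higher and 0 lower. Among them were the basal keratins Krt14 (1.98-fold) and Krt5 (1.53-fold) and the suprabasal Krt1 (2.34-fold) and Krt2 (3.08-fold). Krt14 and Krt1 averaged 9633 and 6840 CPM in IsoL, above their Blank means of 3262 and 1811 CPM. Krt5 and Krt2 stayed below Blank. Krt5 had 1543 to 2030 CPM in IsoL and 3066 to 3365 CPM in Blank. Krt2 averaged 3544 CPM in IsoL, 1152 CPM in Model and 6147 CPM in Blank.

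All 19 desmosome and tight junction genes tested were higher, with a median of 0.69. Dsc1, a desmocollin of the upper epidermis, rose 2.62-fold, Pkp1, plakophilin-1, 2.34-fold, Dsp, desmoplakin, 2.1-fold and Cldn1, the main claudin of epidermal tight junctions, 1.32-fold. Of 21 genes of epidermal serine proteases and their inhibitors 18 were higher and 1 lower. The kallikrein Klk7, which cuts corneodesmosin, had 2923, 2834, 2300.01 and 2678 CPM in IsoL and 1284, 1345, 1340.3 and 1304 CPM in Model, and Spink5, the inhibitor LEKTI that restrains it, had 3061, 3115, 2195 and 3188 CPM in IsoL and 1161, 1313, 1190.5 and 1231 CPM in Model. Neither overlapped between the groups, and protease and inhibitor rose 2.04-fold and 2.36-fold, while the 9 kallikreins tested rose 1.95-fold to 4.02-fold. Serpinb3b was the member that fell (1.4-fold).

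**Figure D4:**
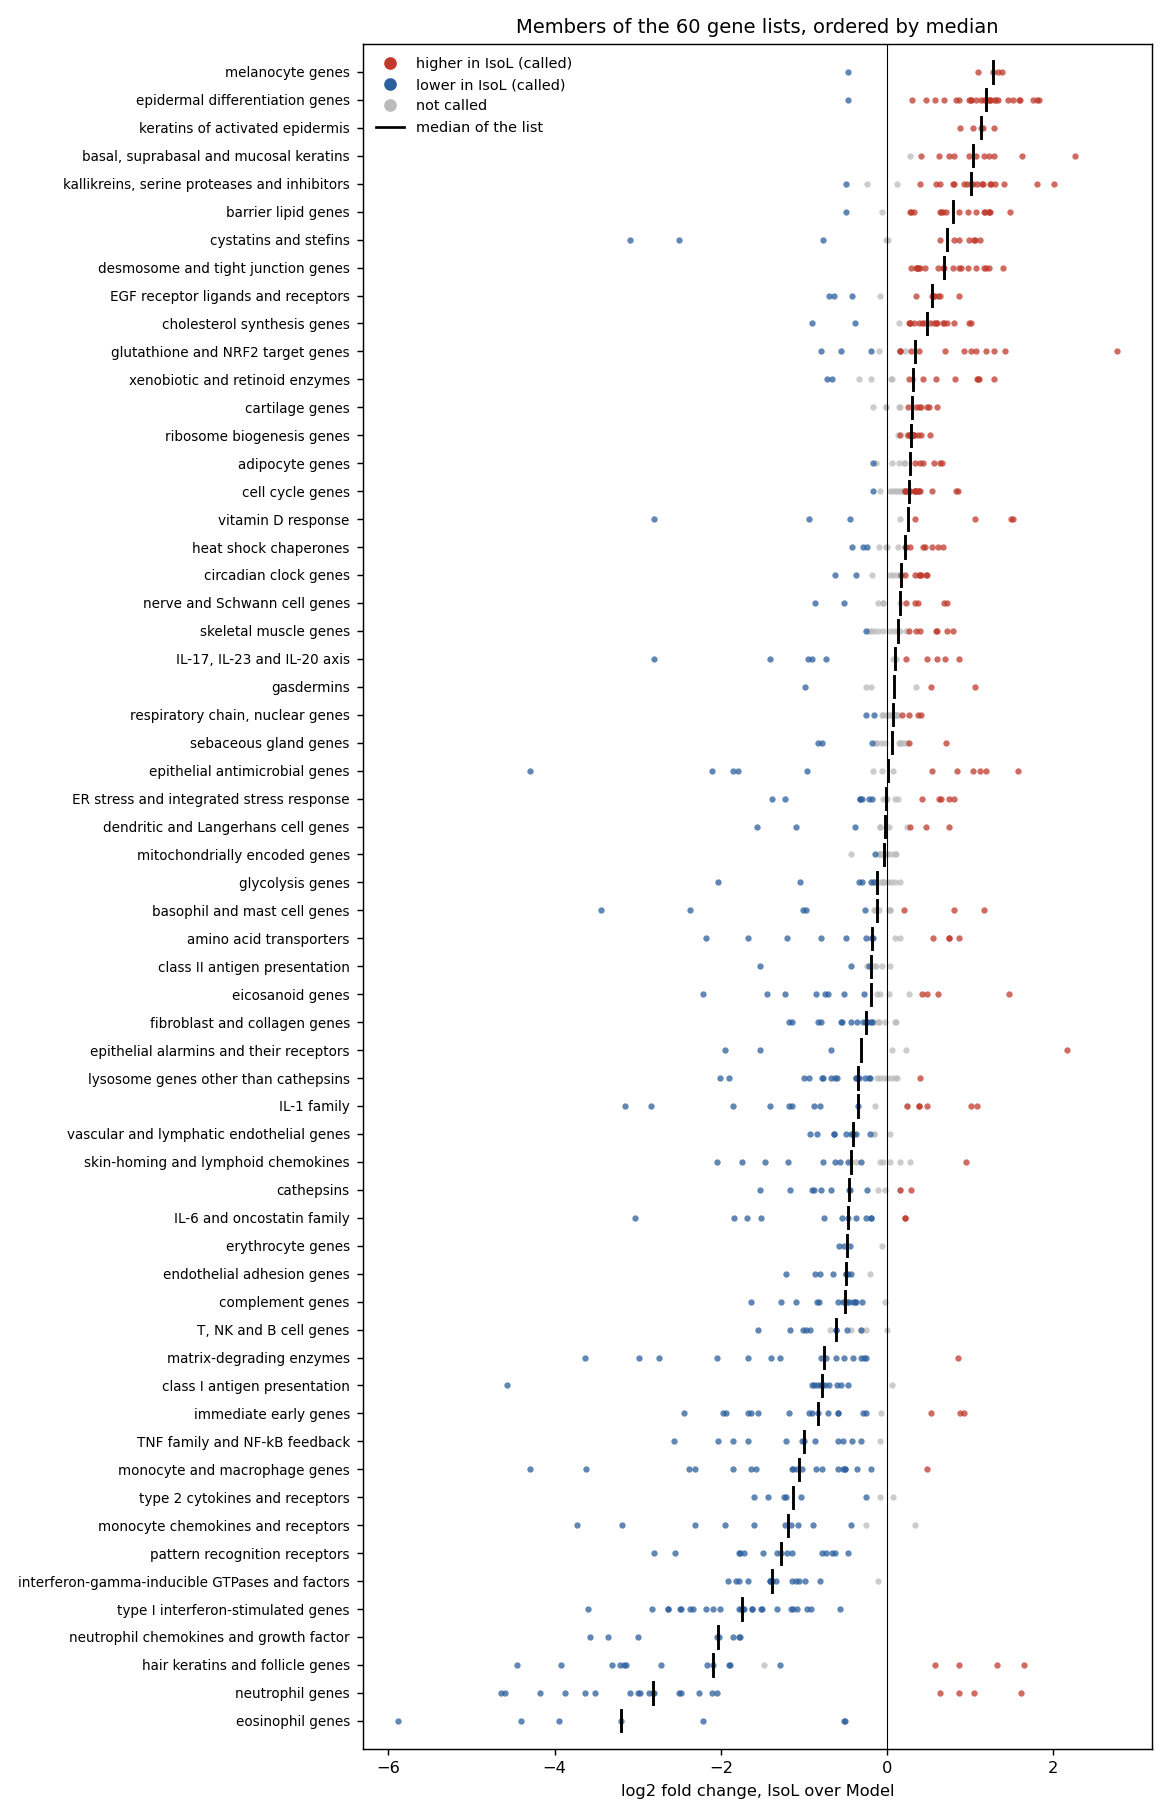
Log2 fold change of IsoL over Model (x axis) of every tested member of the 60 gene lists (rows), ordered by the median of each list (black bar), with called genes in colour. The eosinophil, neutrophil and hair lists lie lowest, and the melanocyte, epidermal differentiation and keratin lists lie highest.

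Of 14 antimicrobial genes of the epithelium 6 were higher and 5 lower. The defensins Defb4, Defb14 and Defb1 rose 2.96-fold, 1.79-fold and 2.04-fold and Duox1, an oxidase, 2.17-fold. Lcn2, the iron-sequestering lipocalin of neutrophils and keratinocytes, had 18.8, 13.5, 18.5 and 13.2 CPM in IsoL and 70.2, 67.9, 65.1 and 72.3 CPM in Model, a 4.31-fold fall, Saa3, an acute phase protein, fell 3.48-fold and Pglyrp1, a granule protein, 3.59-fold. Among EGF receptor ligands, Epgn (epigen), Areg (amphiregulin) and Ereg (epiregulin) rose 1.82-fold, 1.53-fold and 1.48-fold, while Hbegf fell 1.62-fold and Nrg1, a ligand of ERBB3, 1.56-fold. Egfr did not pass (-0.08 ± 0.06, adjusted p = 0.252). Of the gasdermins, pore-forming proteins, Gsdma of the epidermis rose 2.08-fold and Gsdmd, which acts after inflammasomes, fell 1.98-fold.

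Cathepsin B, named in the title of the series, is encoded by Ctsb, a lysosomal cysteine protease gene. It had 1092, 997, 1092 and 1024 CPM in IsoL, against 1849.8, 1795, 1765 and 1897 CPM in Model, and 382 ± 4.88 CPM in Blank. The IsoL libraries lay between the other groups without overlap, 1.74-fold below Model (log2 fold change -0.80 ± 0.06, adjusted p = 2.7e-09). Of 14 cathepsins 9 were lower and 2 higher, with a median of -0.46. Ctss fell 2.89-fold, Ctse 2.25-fold and Ctsk 1.88-fold, Ctsl did not pass (0.16 ± 0.07, adjusted p = 0.081), and Ctsd, the aspartic cathepsin, rose 1.22-fold. Other lysosome genes were lower in 16 of 24 and higher in 1, with a median of -0.34. The largest falls were those of Atp6v0d2, a proton pump subunit of macrophages and osteoclasts (4.04-fold), and Gla, alpha-galactosidase (3.73-fold). The cysteine protease inhibitors went up in 7 of 12 and down in 3. Csta1, a stefin A gene, had 1714, 1695, 1240.4 and 1620.3 CPM in IsoL and 718, 781, 744 and 766 CPM in Model, a 2.08-fold rise, whereas Stfa2l1 fell 8.53-fold and Cstdc4 5.7-fold. Cst3 and Cstb, the widely expressed cystatins, did not pass, at 0.01 ± 0.07 and -0.01 ± 0.05.

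Hair keratins were lower in IsoL but at levels that differed widely between its libraries. Of 17 hair keratins and follicle genes tested 12 were lower and 4 higher, with a median of -2.10. Krt71, a keratin of the inner root sheath, had 6.4, 33.5, 7.12 and 0.286 CPM in IsoL-1 to IsoL-4, against 115, 79.5, 111 and 116 CPM in Model, and 35.9 ± 8.68 CPM in Blank. Krt27, of the same sheath, had 4.74, 11.2, 3 and 0.802 CPM in IsoL, against 55.9, 37, 47.3 and 55.5 CPM in Model, and 18.2 ± 5.96 CPM in Blank. Krt33a, of the hair shaft, had 0.743, 7.63, 0.25 and 0 CPM in IsoL, against 7.99, 8.87, 9.16 and 6.05 CPM in Model, and 2.61 ± 1.03 CPM in Blank. IsoL-2 was the highest IsoL library in each of these, and for Krt33a it reached the Model range. Over the list it stood at a median of 2.84 above the other IsoL libraries on the log2 scale, and IsoL-4 at -1.81. Without IsoL-2 the median of the list was -3.87 and 13 members were called lower and 3 higher, 12 of the 13 being among those called with it. Krt71 then fell by 4.53 in place of 3.16 and Krt27 by 4.10 in place of 3.31 on the log2 scale. Krtap7-1 and Krtap8-1, keratin-associated proteins of the shaft, were likewise highest in IsoL-2 and lowest in IsoL-4 among the IsoL libraries, with 1.14, 10.9, 1.69 and 0.172 CPM and 1.2, 9.74, 1.31 and 0.401 CPM in the IsoL libraries, against 13.6, 9.94, 9.69 and 12.4 CPM and 12.4, 9.82, 10.2 and 11 CPM in the Model libraries.

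The 4 follicle list genes that rose were no hair keratins. Tchh, trichohyalin, had 3953, 4208, 3071 and 3943 CPM in IsoL, against 1162, 1294, 1158 and 1219.8 CPM in Model, and 69.6 ± 22.4 CPM in Blank, and rose 3.14-fold. The transcription factors Hoxc13, Foxn1 and Msx2 rose 2.5-fold, 1.82-fold and 1.49-fold, and Msx2 was not called without IsoL-2, Model-1 or Model-2. Melanocyte genes were higher in 4 of 5 and lower in 1, and Tyr, Slc45a2 and Oca2 did not pass the filter. Dct, dopachrome tautomerase, had 39.5, 43.9, 36.5 and 40.1 CPM in IsoL and 14.6, 16.8, 19.5 and 15.2 CPM in Model, and Tyrp1 had 31.6, 31, 26 and 33.7 CPM in IsoL and 9.97, 10.6, 15.7 and 10.8 CPM in Model. Both pigment enzymes rose without overlap, 2.42-fold and 2.6-fold, while Mitf, the melanocyte factor that other cells also express, fell 1.38-fold. Of 14 sebaceous gland genes 2 were higher and 3 lower, against 23.2% and 24.7% of all genes tested, with a median of 0.05. Their summed level was 4387 to 5251 CPM in IsoL, 3991 to 4516 CPM in Model and 8267 to 8663 CPM in Blank.

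**Figure D5:**
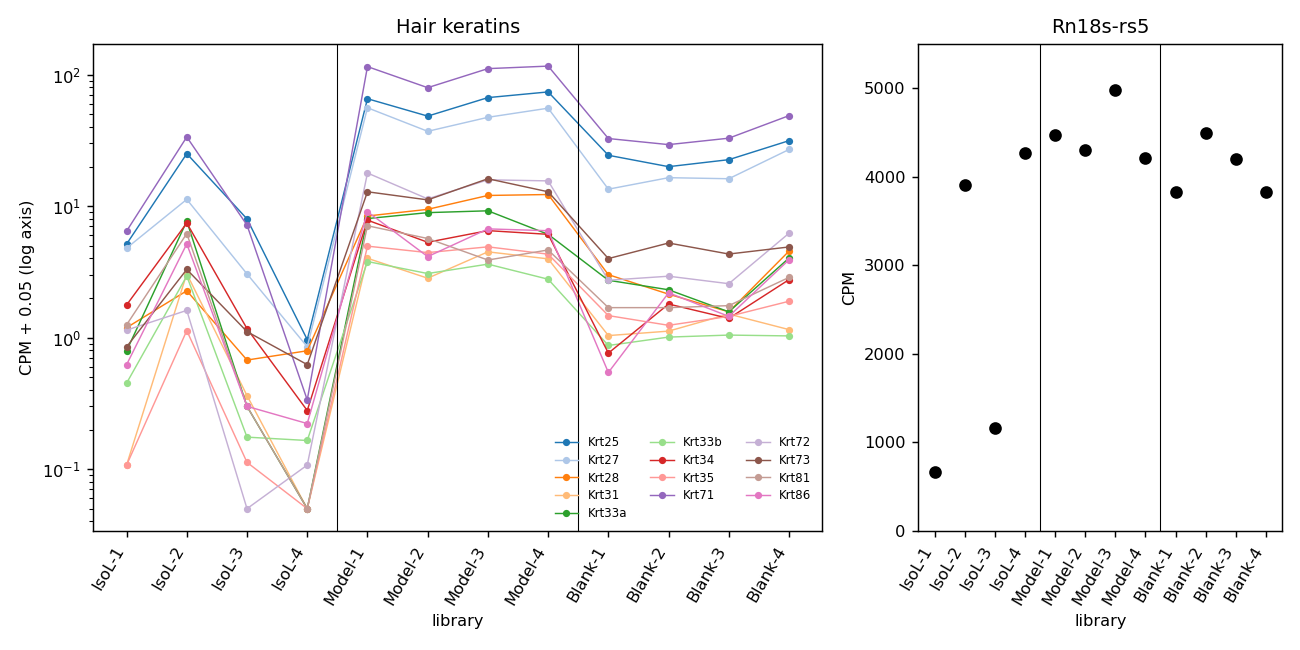
Left, CPM + 0.05 on a log axis of 13 hair keratins in the 4 IsoL, 4 Model and 4 Blank libraries, with a line per gene. Right, CPM of the ribosomal RNA gene Rn18s-rs5 in the same libraries. Hair keratins are highest in IsoL-2 and mostly lowest in IsoL-4 among the IsoL libraries, and Rn18s-rs5 is low in IsoL-1 and IsoL-3.

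Of 22 fibroblast and collagen genes 15 were lower and 0 higher, with a median of -0.25. Tnc, tenascin-C, a matrix protein of wounds, had 611, 494, 524 and 525 CPM in IsoL, against 1212, 1219, 1170.4 and 1265 CPM in Model, and 81.2 ± 1.96 CPM in Blank, a 2.26-fold fall. Timp1, an inhibitor of metalloproteinases, fell 2.23-fold and Fn1, fibronectin, 1.74-fold. Pdgfra, a PDGF receptor of fibroblasts, had 149, 153, 153 and 171 CPM in IsoL and 280, 263, 275 and 296 CPM in Model, a 1.78-fold fall without overlap, and Col1a1 and Col3a1 fell 1.19-fold and 1.19-fold. Of 16 matrix-degrading enzymes 15 were lower. Mmp12, the macrophage elastase, had 10.5, 10.3, 11.7 and 12 CPM in IsoL and 90.5, 77.5, 92.2 and 94.1 CPM in Model, and Plaur, the urokinase receptor, had 31.6, 32.6, 30.2 and 24.1 CPM in IsoL and 207, 188, 195 and 208 CPM in Model. They fell 7.94-fold and 6.74-fold without overlap, Mmp3, stromelysin-1, fell 3.21-fold, and the epithelial stromelysin Mmp10 rose 1.81-fold. Endothelial adhesion genes were lower in 8 of 9 and vascular genes in 10 of 13, with none higher. Vcam1, which leukocytes bind, fell 2.33-fold, Pecam1 1.76-fold, Sele, E-selectin, 1.57-fold and Kdr, the main VEGF receptor, 1.56-fold.

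Genes of the tissues beneath the skin and of blood are given beside these differences. Skeletal muscle genes were higher in 7 of 18 and lower in 1, and their summed level was 3441 to 5228 CPM in IsoL, 3950 to 4502 CPM in Model and 6801 to 7500 CPM in Blank. Cartilage genes were higher in 7 of 12, with a summed level of 1089 to 1526 CPM in IsoL, 1129.9 to 1235 CPM in Model and 2156 to 2355 CPM in Blank. Adipocyte genes were higher in 6 of 12 and lower in 1. Erythrocyte genes were lower in 3 of 4, with a summed level of 87.1 to 119 CPM in IsoL, 136 to 148 CPM in Model and 60.7 to 72.5 CPM in Blank. The muscle and cartilage sums of the IsoL libraries ranged on both sides of Model. The part of unequal tissue shares in the differences was not tested.

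Lists of growth and metabolism genes had medians within 0.5 of 0 on the log2 scale. Of 25 cell cycle genes 16 were higher and 1 lower, with a median of 0.26. Mcm5, of the replicative helicase, rose 1.8-fold and Ccnd1, cyclin D1, 1.78-fold, but Mki67, the proliferation marker, had 141, 150, 143 and 159 CPM in IsoL and 140, 149, 144 and 145 CPM in Model, overlapping, and did not pass (adjusted p = 0.615). Ribosome biogenesis genes were higher in 15 of 17 and lower in 0, with a median of 0.29, from Pes1 (1.11-fold) to Rrp12 (1.44-fold). Cholesterol synthesis genes were higher in 17 of 20. Dhcr7, the reductase of the last step of the pathway, had 149, 129, 127 and 124 CPM in IsoL and 62.1, 69.3, 73.8 and 56.9 CPM in Model. It rose 2.01-fold without overlap, while the 2 sterol exporters Abca1 and Abcg1, which other receptors control, fell 1.87-fold and 1.31-fold.

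Genes of glutathione and of the NRF2 response were higher in 12 of 18 and lower in 3, with a median of 0.34. Srxn1, sulfiredoxin, had 178, 169, 143 and 173 CPM in IsoL and 70.6, 74.2, 74.3 and 72.4 CPM in Model, a 2.28-fold rise, Gsta4 rose 2.45-fold and Nqo1 1.63-fold. Slc7a11, the cystine transporter that NRF2 also induces, went against them at 1.73-fold lower, and Hmox1, haem oxygenase-1, did not pass (-0.10 ± 0.06, adjusted p = 0.154). Xenobiotic and retinoid enzymes were higher in 8 of 15 and lower in 2, among them Crabp2, a retinoic acid-binding protein (2.13-fold), whereas Cyp1a1, the classical target of the aryl hydrocarbon receptor, did not pass (0.05 ± 0.10, adjusted p = 0.676). Glycolysis genes were lower in 6 of 16 and higher in 0. The lactate exporter Slc16a3 had 24, 23.2, 22.8 and 16.5 CPM in IsoL and 92.2, 84.3, 89.1 and 86.8 CPM in Model, a 4.08-fold fall, and Pfkfb3, an activator of glycolysis, fell 2.07-fold, while Ldha and Gapdh did not pass. Respiratory chain genes of the nucleus (4 higher and 2 lower of 18) and of the mitochondrion (1 lower of 13, mt-Nd6) had medians of 0.07 and -0.04.

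Immediate early genes, which also respond to tissue handling, were lower in 15 of 19 and higher in 3, with a median of -0.83. Atf3 had 14.1, 13.2, 15.4 and 12.9 CPM in IsoL and 84.3, 72, 75.5 and 73.5 CPM in Model, Egr1 had 57.6, 57.1, 58.7 and 51.5 CPM in IsoL and 223, 200, 220 and 223 CPM in Model, and Fos had 45.7, 51.1, 41 and 45.5 CPM in IsoL and 144, 147, 138 and 157 CPM in Model. These transcription factors fell 5.48-fold, 3.85-fold and 3.19-fold without overlap. The 3 risers were Egr3 (1.91-fold), Klf4, a factor of keratinocyte differentiation (1.84-fold), and Myc (1.45-fold). Heat shock chaperones were higher in 8 of 15 and lower in 3, with Hspa1b up 1.59-fold and Dnaja1 down 1.34-fold. In the integrated stress response Asns, asparagine synthetase, rose 1.76-fold and Trib3 1.67-fold, whereas Ddit3 (CHOP) fell 1.26-fold and the phosphatase subunit Ppp1r15a 2.34-fold. Of the clock genes 8 of 15 were higher and 2 lower, Dbp 1.3-fold and Nr1d1 1.32-fold up and Per1 1.3-fold down. Among 15 amino acid transporters 4 were higher and 8 lower. Slc7a5, a transporter of large neutral amino acids, rose 1.81-fold, and Slc15a3, a peptide transporter of phagocytes, fell 4.55-fold.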

How the data were processed

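The table holds deposited counts and FPKM for 56691 genes of the 12 libraries, 4 per group; the authors' FPKM are scaled by gene length and library size. Per the labels, total RNA of ear tissue was extracted with Trizol and messenger RNA was captured on poly-T beads and copied from random primers. The submitters' processing notes name fastp 0.22.0, HISAT2 2.1.0 and HTSeq 0.9.1. The genome build, the counting options and the strand setting are not given in the sources used here, so overlapping and antisense genes cannot be told apart.

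The deposited counts were the input of edgeR 4.0.16 (R 4.3.3): TMM factors from the 12 libraries, a filter that kept the 14500 genes whose FPKM reached 1 in 4 or more libraries of the comparison, a quasi-likelihood test of IsoL against Model on the 8 libraries, and Benjamini-Hochberg adjusted p under 0.05 for a call. The test was run on simulated counts with 1 spread for both groups and far fewer changed genes than were called here. That run therefore does not cover the unequal spread of IsoL and Model. Alternatives used DESeq2 1.42.0, limma 3.58.1 on log2(FPKM + 1) and log2(FPKM + 0.1), other scalings and filters, a fit of all 3 groups, a replicate block and each library left out. Low cytokines were compared by counts with two-sided exact permutation tests of CPM and a conditional 95% interval of the ratio.

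The 60 gene lists and the rules for naming genes were chosen with earlier results of these data known, and the test of a list is replaced by its counts and median. Genes were named as the 12 largest rises and falls without overlap and with a mean FPKM of 5 or more, a fixed panel, up to 4 called members per list with the largest change, up to 5 called against the majority of their list, and the 6 with the largest spread in IsoL. Of the 308 genes that this rule selects 194 are named, and 99 further genes of the text fall outside this rule and were chosen after their values were seen. Symbols shared by several rows (Aldoa, Nrg1, Ddit3) were taken from the row with the higher count, 2639 rows carry no symbol, and Krt85 and Bmal1 were not matched. The share of 50-base words of a gene that occur in another gene was computed from GENCODE M21 transcripts on both strands. Promoters come from the RefSeq table of GRCm38.p6, with 1 window for each of 27025 genes. Libraries of 1 group differed beyond sampling noise in every pair, so none was counted as a repeat deposit. All other list members are given within the counts of their list and not by name. The AP-1 consensus was added after the looser pattern had been searched.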

Additional observations from a re-analysis of the deposited data

Results flagged for a closer look

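Of the 293 genes named in the text, each with 4 IsoL and 4 Model libraries, 34 of 586 groups (5.8%) held a library far from the other 3, by a gap to the nearest of them that exceeds Dixon's critical value for 4 samples, as a share of the range of the group. Chance flags about 1 in 20 groups, a rate that is approximate here because the CPM were rounded before the gaps were taken. Of the 34 flagged groups, 22 were in IsoL and 12 in Model.

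IsoL-1 stood above the other IsoL libraries with 36.3 CPM for Clcf1 against 31.6 to 32.2 CPM in the others, 34 CPM for Ecel1 against 25.7 to 26.7 CPM in the others and 5012 CPM for Krt6b against 4169.7 to 4289 CPM in the others. IsoL-1 also stood above them with 7.95 CPM for Marco against 5.9 to 6.19 CPM in the others and 118 CPM for Sult2b1 against 91 to 95.5 CPM in the others. IsoL-2 stood above the other IsoL libraries with 7.39 CPM for Atp6v0d2 against 6.31 to 6.47 CPM in the others, 21.3 CPM for Cyp1a1 against 17.8 to 18.3 CPM in the others and 7.63 CPM for Krt33a against 0 to 0.743 CPM in the others. IsoL-2 also stood above them with 10.9 CPM for Krtap7-1 against 0.172 to 1.69 CPM in the others, 9.74 CPM for Krtap8-1 against 0.401 to 1.31 CPM in the others and 26.7 CPM for Nlrp3 against 17.6 to 18.9 CPM in the others. IsoL-2 stood below the other IsoL libraries with 68.7 CPM for Pes1 against 76 to 77.1 CPM in the others. IsoL-3 stood above the other IsoL libraries with 7.12 CPM for Ctse against 6.17 to 6.31 CPM in the others and 13.5 CPM for Lep against 11.5 to 11.8 CPM in the others. It was also flagged with 131 CPM for Stat2 against a rounded 126 CPM in each of the others, a small difference whose flag rests on the rounding. IsoL-3 stood below the other IsoL libraries with 289 CPM for Crabp2 against 363 to 376 CPM in the others, 120 CPM for Epgn against 142 to 143 CPM in the others and 1.44 CPM for Mcpt1 against 2.1 to 2.18 CPM in the others. IsoL-3 also stood below them with 2195 CPM for Spink5 against 3061 to 3188 CPM in the others. IsoL-4 stood above the other IsoL libraries with 40.1 CPM for Kit against 31.1 to 32.6 CPM in the others. IsoL-4 stood below the other IsoL libraries with 8.82 CPM for Rps2-ps10 against 11.7 to 11.8 CPM in the others and 16.5 CPM for Slc16a3 against 22.8 to 24 CPM in the others.

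Model-1 stood above the other Model libraries with 19.1 CPM for Ptger4 against 16.8 to 16.9 CPM in the others. Model-2 stood above the other Model libraries with 318 CPM for Tgm3 against 226 to 227 CPM in the others. Model-2 stood below the other Model libraries with 200 CPM for Egr1 against 220 to 223 CPM in the others and 79.5 CPM for Krt71 against 111 to 116 CPM in the others. Model-3 stood above the other Model libraries with 188 CPM for Ckm against 157 to 159 CPM in the others and 15.7 CPM for Tyrp1 against 9.97 to 10.8 CPM in the others. Model-3 stood below the other Model libraries with 23.1 CPM for Atp6v0d2 against 27.9 to 28.3 CPM in the others and 35.5 CPM for Kit against 36.6 to 36.8 CPM in the others. Model-4 stood above the other Model libraries with 1597 CPM for B2m against 1461 to 1476 CPM in the others, 183 CPM for Dnaja1 against 172 to 173 CPM in the others and 31.1 CPM for Tpsab1 against 26.3 to 26.9 CPM in the others. Model-4 stood below the other Model libraries with 2320 CPM for Krt10 against 2985 to 3052 CPM in the others.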

How the results depend on the processing

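Scaling, filter and tool moved some counts of calls. Without a filter on low values 33580 genes were tested and the genes at least 2-fold higher and lower in IsoL numbered 554 and 1591. With an FPKM of 5 or more required, 8225 genes were tested, 2279 were lower and 510 at least 2-fold lower. Limma on log2(FPKM + 1) called 191 genes at least 2-fold higher, on a scale that understates the change of low genes. All other counts stayed within 1.5 times their value under these settings, DESeq2, the other scalings and the fit of all 3 groups. The share of calls that were higher in IsoL ran from 39.2% without scaling factors to 55.5% with upper-quartile factors, and the median of all genes from -0.05 to 0.05 among the scalings, so that directions of differences below this size depend on the scaling.

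Leaving out each library in turn gave 6204 to 6951 changed genes, 2962 to 3364 higher, 3242 to 3587 lower, 294 to 369 at least 2-fold higher and 856 to 895 at least 2-fold lower. The ratio of counts was 0 to 0.137 for Il17a, 0.274 to 0.626 for Il17f, 0.301 to 0.424 for Il13 and 0.831 to 1.32 for Il5. The ratio of 0 came without IsoL-3, which held both Il17a counts of its group.

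The replicate numbers pair no samples by the labels, and libraries of the same number did not deviate together (r = -0.073, -0.088, 0.007 and 0.012). A fit with the replicate block called 6928 genes, 3308 higher and 3620 lower, with 339 and 878 at least 2-fold, and 6735 of the 6945 called genes were among them.

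Of the 293 genes named in the text 266 were called, none reversed its direction under the 19 other settings, and 12 lost the call in at least 1 of them (Ckm, Clcf1, Col2a1, Il11ra1, Il17re, Krtap8-1, Marco, Msx2, Pes1, Ptgs2, Traf3ip2 and mt-Nd6). A further 10 genes that did not pass were called in at least 1 setting. Of 1080 list medians under other settings 80 moved by more than the spread between libraries, and 1 median of 0.1 or more from 0 changed its sign, that of the vitamin D response, at -0.15 with an FPKM of 5 or more. Hair keratins depend on IsoL-2, as given with their values. Genes under the FPKM filter, among them most type 2 and type 17 cytokines, are limited by depth, and the wider spread of IsoL limits small differences.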

Other observations

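Genes of Schwann cells and nerve, which no earlier paragraph describes, were higher in 5 of 11 and lower in 2, with a median log2 fold change of 0.15. Ngfr, a neurotrophin receptor of Schwann cells and sensory fibres, had 6.4, 5.47, 5.87 and 4.7 CPM in IsoL, against 3.67, 4.32, 3.03 and 2.86 CPM in Model, and 8.95 ± 0.686 CPM in Blank. It rose 1.61-fold without overlap (adjusted p = 0.00277, edgeR's quasi-likelihood test). Mbp, a myelin protein, rose 1.26-fold, while Cdh19, a cadherin of Schwann cells, fell 1.83-fold and the sodium channel Scn7a 1.43-fold. Among lipid genes of fat and sebaceous glands, Lipe, the hormone-sensitive lipase, and Lep, leptin, rose 1.56-fold and 1.58-fold, Dgat2, which completes triglycerides, rose 1.63-fold, and Plin2, a lipid droplet coat protein that macrophages also express, fell 1.72-fold.

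Genes whose IsoL libraries lay at least 5-fold outside both other groups, with a mean FPKM of 5 or more in the higher group, were few, 2 above and 3 below, and were picked after their values were seen. Gm6166, a predicted gene on chromosome 9, had 208, 138, 202 and 154 CPM in IsoL, against 13.9, 16.4, 14.8 and 15.4 CPM in Model, and 16.1, 14.9, 15 and 15.3 CPM in Blank, so that every IsoL library was higher than the other 8. Of its 50-base words 53.6% also occur in other genes, mostly in Fabp5, a fatty acid-binding protein of the epidermis that rose 1.7-fold, so that the level of Gm6166 is uncertain. Ecel1, described above, was the other gene above both groups. The 3 genes below both were H2-T22, H2-T23 and H2-T24, which follow one another on chromosome 17. Their neighbour Gnl1, a GTPase gene, had 44.3, 39.8, 41.7 and 37.5 CPM in IsoL and 43, 40.1, 41.9 and 42.8 CPM in Model, and the class I gene H2-T10 had 29.2, 24.6, 26.7 and 29 CPM in IsoL and 26.9, 30.9, 26.9 and 30.7 CPM in Model. Neither passed the test, at -0.04 ± 0.07 and -0.08 ± 0.08 on the log2 scale (adjusted p = 0.664 and 0.45). The rest of the region went both ways. Lower without overlap were Gm11127 and H2-T-ps, between H2-T22 and H2-T10, by 1.96-fold and 2.12-fold. So were Gm9574, beyond H2-T10, by 9.11-fold (0.146 ± 0.113 CPM in IsoL and 1.41 ± 0.444 CPM in Model), and Ppp1r18 and Ppp1r10, on the far side of Gnl1, by 2.21-fold and 1.72-fold. Between Ppp1r18 and Gnl1 other genes were called higher without overlap, by 1.21-fold and 1.23-fold, and further ones did not pass the test. Of the words of Gm11127 78.3% and of those of H2-T-ps 29.4% also occur in other genes, so that their levels are uncertain. H2-T10 shares stretches with H2-T22, and the reads behind either level cannot be divided further from the count table.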
